A study of Mus musculus with 10 samples.

Results

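The 10 genes for matricellular and mineralization proteins followed here in mouse aortic arch were Spp1, Mgp, Sparc, Postn, Tnc, Thbs1, Thbs2, Tgfbi, Ctgf and Fn1. They were taken by gene symbol from the annotation of the array, which named probes for 8 of the 10, and 6 of the 10 had enough values to be tested, among 4299 tested genes of 11130 named on the array. The 6 are Mgp, Sparc, Postn, Tnc, Tgfbi and Ctgf, which the current annotation calls Ccn2. Thbs1 and Thbs2 had probes with values on too few arrays, and Spp1 and Fn1 had no named probe, so their transcripts were not analysed here.

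The groups were apoE-/- mice, called apoE-null here, and apoE-/- mice that also lack MyD88 (MyD88-/-, apoE-/-), called double-null; the deletion of apolipoprotein E is therefore shared by both. Loss of apolipoprotein E raises plasma cholesterol and leads to atherosclerotic plaques, and MyD88 is the adaptor of the interleukin-1 receptors and most Toll-like receptors. Each two-colour array compared amplified RNA from a double-null mouse with that from an apoE-null mouse. There were 5 such pairs of mice, each on 2 arrays with the dyes exchanged, which gives 10 arrays and n = 5 pairs. A high fat diet for 8 weeks is stated for 8 of the arrays, and the arrays without that statement carry mice that also appear on arrays with it. Both mice were female in pair 1 and male in pairs 2, 3 and 4; in pair 5 the double-null mouse was male and the apoE-null mouse female. The sources used here do not state strain, age or how each gene was disrupted. All values are log2 ratios of double-null over apoE-null, opposite to the deposited direction, so that a value below 0 means less transcript in the double-null mouse.

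Matricellular proteins are secreted into the extracellular matrix, where they modulate how cells attach, migrate and respond to growth factors more than they bear load. In arteries they are made largely by smooth muscle cells, fibroblasts and, for osteopontin (Spp1), macrophages, and they rise with injury, transforming growth factor-β signalling and plaque formation. Matrix Gla protein (Mgp) is a vitamin K-dependent inhibitor of arterial calcification, while periostin (Postn) and osteonectin (Sparc) bind collagen and were first studied in bone.

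The arrays gave between 4581 and 7057 values each for 13872 probes. Myd88 itself had log2 ratios between -1.15 and -0.57 in the 5 pairs and lay below 0 on all 10 arrays, with a mean of -0.90 ± 0.22 (SD, n = 5 pairs, limma adjusted p = 0.0269). The sources used here do not state whether its probe lies in the deleted part of the gene. Without any 1 pair the mean of Myd88 stayed between -0.98 and -0.84, while its call was lost (limma adjusted p between 0.0558 and 0.124). The call was also lost with channel 1 arrays alone (0.0502), with 1 array enough per pair (0.0549), in the male pairs alone (0.0587) and with a trended, robust variance (0.660), and it held in the array-level fit with the pair as a block (0.00106). Among the smooth muscle markers of the arterial wall, Acta2, Myh11, Tagln, Cnn1 and Smtn had values on all 10 arrays, and Des had none; ratios do not give levels, so the tissue could be checked no further. In pair 1 the mouse numbers and genotypes are crossed between the labels of its 2 arrays, and the genotypes were followed.

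For no measured matricellular gene did the difference between genotypes pass the test. In the limma fit over all genes 0 of 6 passed an adjusted p under 0.05, against 0.814% of the genes tested, and 1 of 6, Tgfbi, had an unadjusted p under 0.05, as did 407 of all 4299 genes. The mean log2 ratio was below 0 for 5 of the 6 and above 0 for Tnc. Their median was -0.16, beside -0.04 for all genes tested, of which 58.3% were below 0. A miss does not show equal levels, and the 95% interval of each gene gives the changes still allowed under limma's variance. That variance combines the gene's own spread with the spread of all genes tested. For Ctgf and Postn, whose pairs varied widely, the interval is therefore narrower than their own pair values alone would give. Limma p-values likewise weigh a mean against the spread between these mouse pairs combined with that of all genes. Fewer cells of a type cannot be told apart from less RNA per cell.

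**Figure D1:**
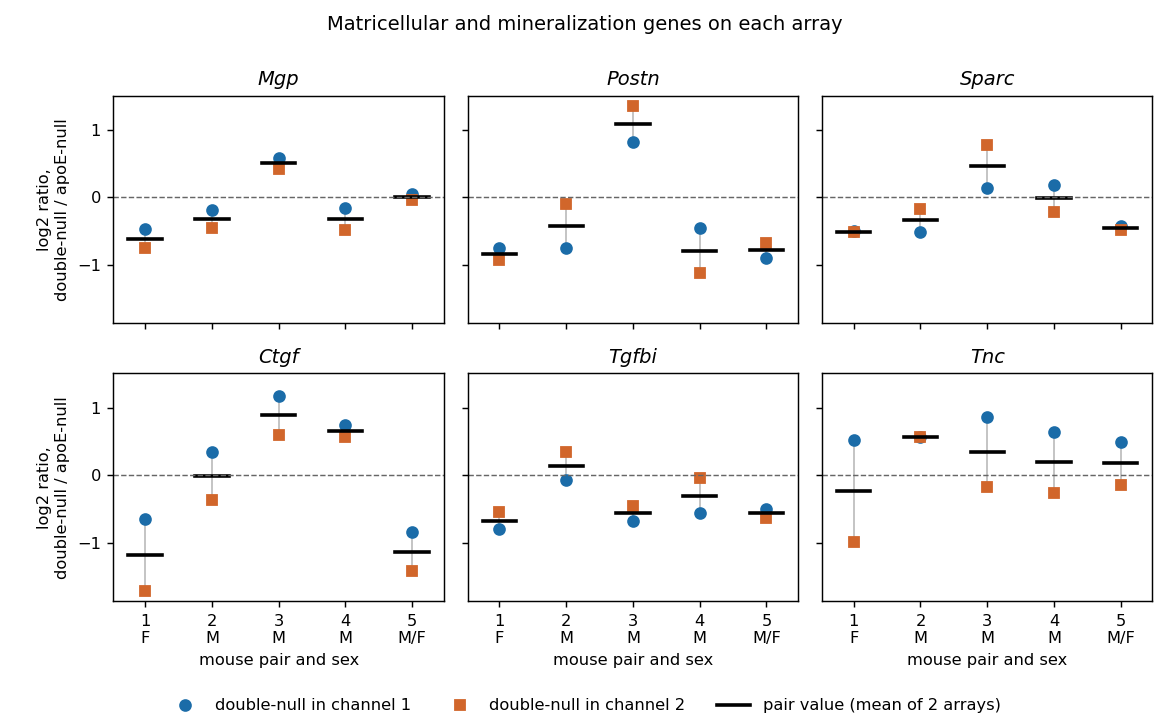
Log2 ratio of double-null over apoE-null (vertical axis) for the 6 measured genes in each mouse pair (horizontal axis, F female, M male, M/F male double-null against female apoE-null). Blue circles are arrays with double-null RNA in channel 1, orange squares arrays with it in channel 2, grey lines join the arrays of a pair and black bars are the pair values; pair 3 is the highest for Mgp, Postn, Sparc and Ctgf, and pair 1 the lowest for all 6.

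Mgp, the calcification inhibitor, had pair values of -0.61, -0.32, 0.50, -0.32 and 0.01 in pairs 1 to 5. Both arrays were below 0 in pairs 1, 2 and 4 and above 0 in pair 3, and the arrays of pair 5 stood at 0.05 and -0.03. The mean was -0.15 ± 0.42 (SD, n = 5 pairs), with a 95% interval from -0.53 to 0.23 (limma adjusted p = 0.754). The 2 arrays of a pair differed by at most 0.32, while its pair values spanned -0.61 to 0.50. The mean was -0.03 without pair 1, -0.31 without pair 3 and -0.04 in the male pairs alone.

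Postn, a collagen-binding protein of remodelling matrix, had 1 pair far from its other pairs. It had pair values of -0.84, -0.43, 1.09, -0.79 and -0.78. In pair 3 its arrays read 0.82 and 1.35, while the other 8 arrays lay between -1.12 and -0.10. The pair 3 arrays of Mgp, at 0.58 and 0.42, likewise lay above its other arrays, of which the highest was 0.05. How often a pair stands apart in this way among all genes was not counted. The mean was -0.35 ± 0.82 (SD, n = 5 pairs), with a 95% interval from -0.98 to 0.28 (limma adjusted p = 0.667). The mean was -0.71 without pair 3 (limma adjusted p = 0.103), -0.23 without pair 1 (0.931) and -0.04 in the male pairs alone (0.994).

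Sparc, the secreted collagen chaperone osteonectin, was likewise lowest in pair 1 and highest in pair 3. It had pair values of -0.51, -0.34, 0.46, -0.02 and -0.45. Its arrays in pair 3 read 0.13 and 0.78, and 7 of its 10 arrays were below 0. The third array above 0, at 0.18, belonged to pair 4, whose partner array stood at -0.22. The mean was -0.17 ± 0.40 (SD, n = 5 pairs), with a 95% interval from -0.54 to 0.19 (limma adjusted p = 0.714). The mean was -0.33 without pair 3, -0.09 without pair 1 and 0.03 in the 3 male pairs alone.

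Promoter windows of Postn and Sparc are shown because these genes were highest in the same pair and lowest in the same pair, and that of Tgfbi because it shared their lowest pair but not their highest and had the smallest p. They are the 250 bases before the RefSeq transcript start in GRCm38.p6, read 5′ to 3′ on the gene's strand, with capitals marking a match to the TATA box. Postn (chr3:54360857-54361106, plus strand, the more downstream of 2 starts), Sparc (chr11:55420081-55420330, minus strand) and Tgfbi (chr13:56609336-56609585, plus strand) read:
Postn: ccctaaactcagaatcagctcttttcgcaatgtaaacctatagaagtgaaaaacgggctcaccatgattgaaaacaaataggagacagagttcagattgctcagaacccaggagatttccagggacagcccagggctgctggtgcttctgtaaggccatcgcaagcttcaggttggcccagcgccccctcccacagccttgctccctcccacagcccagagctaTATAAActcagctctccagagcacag
Sparc: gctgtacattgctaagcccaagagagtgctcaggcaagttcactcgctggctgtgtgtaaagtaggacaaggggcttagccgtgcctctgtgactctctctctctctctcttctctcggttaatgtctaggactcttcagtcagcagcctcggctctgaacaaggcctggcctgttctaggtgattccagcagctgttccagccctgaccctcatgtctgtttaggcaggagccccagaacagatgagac
Tgfbi: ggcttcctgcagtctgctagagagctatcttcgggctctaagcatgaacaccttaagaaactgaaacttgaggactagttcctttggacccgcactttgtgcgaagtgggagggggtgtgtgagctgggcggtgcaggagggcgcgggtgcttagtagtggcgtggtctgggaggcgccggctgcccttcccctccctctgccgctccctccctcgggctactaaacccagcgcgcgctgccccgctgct

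The windows were searched on both strands for the TATA box (TATAAA), AP-1 (TGANTCA), TEAD (GGAATG), a SMAD box (GTCTAGAC) and NF-κB. The Postn window held the TATA box, on the plus strand and beginning 26 bases before the start, as did 12.4% of 32851 promoter windows of this length somewhere, while the window at the other start of Postn (chr3:54359017-54359266) held none of the motifs. The Sparc and Tgfbi windows held none of the motifs, which occur in 6.75% (AP-1), 12.6% (TEAD), 0.167% (SMAD box) and 7.25% (NF-κB) of all windows. A match describes letters, not a bound site. Windows were listed for 6 of the 10 members, namely Spp1, Sparc, Postn, Tnc, Thbs2 and Tgfbi.

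Ctgf, a CCN family protein induced by transforming growth factor-β and by mechanical strain, varied most between pairs. Its pair values were -1.18, -0.01, 0.89, 0.65 and -1.13. Both arrays were above 0 in pairs 3 and 4, between 0.56 and 1.18, and both were below 0 in pairs 1 and 5, between -1.71 and -0.64. The mean was -0.16 ± 0.97 (SD, n = 5 pairs), with a 95% interval from -0.89 to 0.57 (limma adjusted p = 0.869). Its sign was not stable: the mean was 0.10 without pair 1, 0.09 without pair 5 and 0.51 in the male pairs alone, against -0.42 without pair 3 and -0.36 without pair 4.

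Tgfbi, a secreted adhesion protein named for its induction by transforming growth factor-β, had the lowest mean of the 6. Its pair values were -0.68, 0.14, -0.57, -0.30 and -0.57, and 9 of 10 arrays were below 0, the exception being an array of pair 2 at 0.35. The mean was -0.40 ± 0.33 (SD, n = 5 pairs), a 1.32-fold lower ratio with a 95% interval from -0.72 to -0.07. The mean was -0.24 in the male pairs alone. It did not pass over all genes (limma unadjusted p = 0.0235, adjusted p = 0.443). An exact sign-flip permutation test over the 5 pairs gave p = 0.125 (two-sided), where the smallest possible is 0.0625.

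Tnc, the tenascin of injured and developing arteries, was the gene with a mean above 0. Its pair values were -0.23, 0.56, 0.34, 0.19 and 0.17. All 5 arrays with double-null RNA in channel 1 were above 0, between 0.49 and 0.85, while 4 of the 5 with it in channel 2 lay between -0.99 and -0.14 and the array of pair 2 at 0.57. The mean was 0.21 ± 0.29 (SD, n = 5 pairs), with a 95% interval from -0.10 to 0.52 (limma adjusted p = 0.615). The mean was 0.12 without pair 2, 0.32 without pair 1 and 0.37 in the male pairs alone, and by orientation it was 0.61 on channel 1 and -0.20 on channel 2 arrays.

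The thrombospondins, which bind CD36 and CD47 and of which Thbs1 can activate latent transforming growth factor-β, were poorly measured. One Thbs1 probe had a single value, 2.90, on the channel 1 array of pair 1. A second Thbs1 probe read -0.34 on the other array of pair 1 and 0.53, 0.31 and 0.29 on 1 array each of pairs 2, 5 and 3, so that the 2 probes had opposite signs in pair 1. With 1 array accepted per pair, the second probe had a mean of 0.20 over 4 pairs (limma adjusted p = 0.701). Thbs2 had a single value, -0.93, in pair 5. Thbs1 is also carried by platelets, whose markers (4 of 8 tested) had a median of 1.05 in pair 1 and 2.71 in pair 5, and between -0.31 and 0.45 in the other pairs; their part in the Thbs1 values was not tested.

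**Figure D2:**
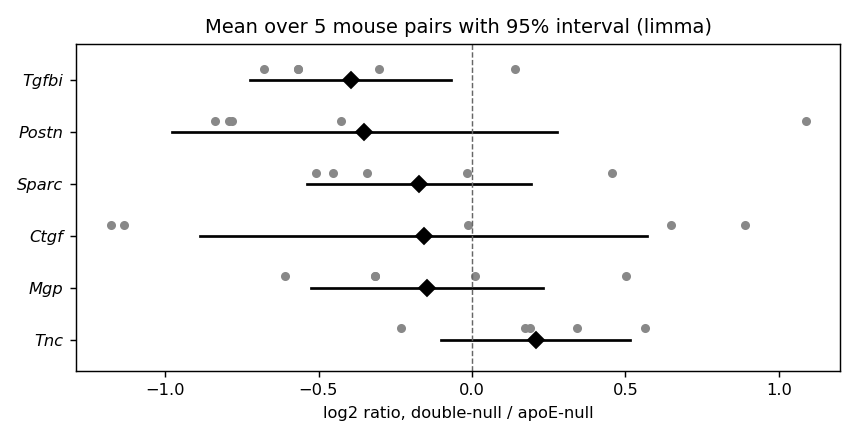
Mean log2 ratio over 5 mouse pairs (black diamonds) with limma's 95% interval (lines) and the 5 pair values (grey points) for each measured gene. The interval of Tgfbi, from -0.72 to -0.07, is the only one that does not reach 0, and its adjusted p was 0.443. Each interval rests in part on the spread of all genes tested, not only on the 5 points shown.

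The spread between pairs was wide for Ctgf and Postn. Among 3192 genes with 5 pair values the median SD was 0.30 on the log2 scale. Ctgf, with 0.97, lay at percentile 97.6 of those SDs, and Postn, with 0.82, at percentile 96.0. Mgp and Sparc followed at percentiles 74.9 and 71.1, Tgfbi at 56.7, and Tnc, with an SD of 0.29, at 47.3. The 2 arrays of a pair had the same sign in 22 of 30 cases for the 6 genes (73.3%), beside 62.4% for the 3298 named probes with values on all arrays.

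**Figure D3:**
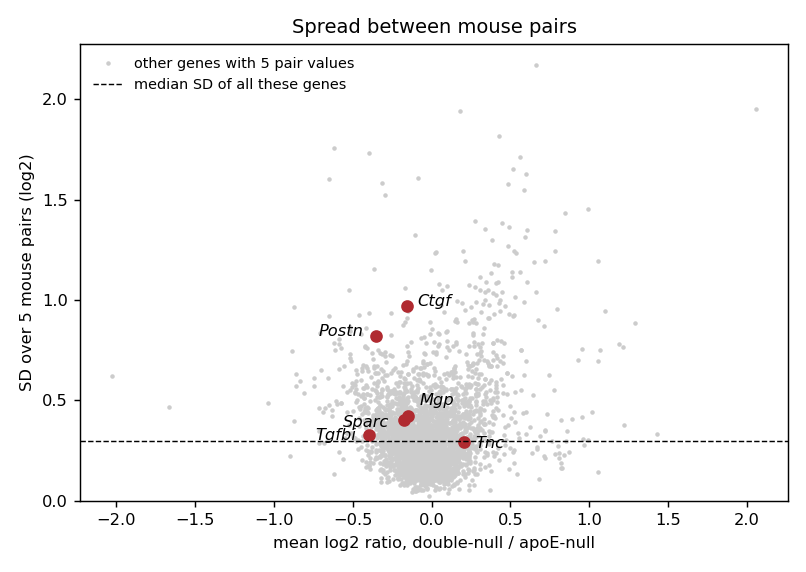
SD over 5 mouse pairs against the mean log2 ratio of double-null over apoE-null for genes with 5 pair values (grey points), with the 6 measured genes in red and the median SD of 0.30 as a dashed line. Ctgf and Postn stand above most genes of like mean, while Tnc and Tgfbi lie near the line.

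The pairs fell in a similar order for several of the genes. Pair 1 was the lowest pair for 6 of 6, as it was for 30.1% of the genes with 5 pair values, and pair 3 was the highest for 4 of 6, as for 24.2%. The other two, Tnc and Tgfbi, were highest in pair 2. Medians of the 6 genes were -0.64, -0.17, 0.48, -0.16 and -0.51 in pairs 1 to 5. Across all probes with both values the arrays of pair 3 were only weakly correlated (Pearson's r = 0.04 over 5045 probes, beside 0.19 to 0.56 in the other pairs), a correlation across probes, which are not replicates. Mgp, Postn, Sparc and Ctgf, the 4 genes highest in pair 3, were above 0 on both of its arrays. Tgfbi was below 0 on both, at -0.68 and -0.45, and Tnc read 0.85 and -0.17.

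Markers of the cells that make these proteins also varied between pairs, and none passed the genotype test. The smooth muscle markers (8 of 11 tested, 7 below 0) had medians of -0.50, -0.29, 0.31, 0.02 and -0.46, with Actg2, an actin of smooth muscle, at -0.51 in pair 1 and 0.26 in pair 3. Smtn had -0.50 and 0.13 in those pairs and Lmod1 -0.43 and 0.32, while Itga8 was below 0 in both, at -0.46 and -0.17. The fibroblast markers (10 of 10 tested, 8 below 0) had pair medians from -0.34 in pair 5 to -0.02 in pair 3, and Lum, a collagen-binding proteoglycan, was lower than these medians in pairs 1 and 2, at -1.16 and -1.15. The adipocyte markers (7 of 10 tested, 1 below 0) had pair medians of 2.01, -0.24, -0.39, 0.93 and -0.47. Lpl, the 1 below 0, had a mean of -0.42 ± 0.58 (SD, n = 5 pairs) and stood at -0.39 in pair 1. The macrophage markers (16 of 18 tested, all 16 below 0 on average) had medians of -1.18, -0.43, -0.68, -0.38 and 0.31. The endothelial markers (7 of 10 tested) had pair medians between -0.16 and 0.12, although single genes lay further out, such as Emcn at -1.05 and Kdr at 0.89 in pair 1. The pair medians of the chondrocyte markers (3 of 12 tested) ran from -0.86 in pair 1 to 0.07 in pair 4, with Comp at -1.31 and Matn1 at 0.68 in pair 1. The part of these cells in the matricellular values was not tested.

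**Figure D4:**
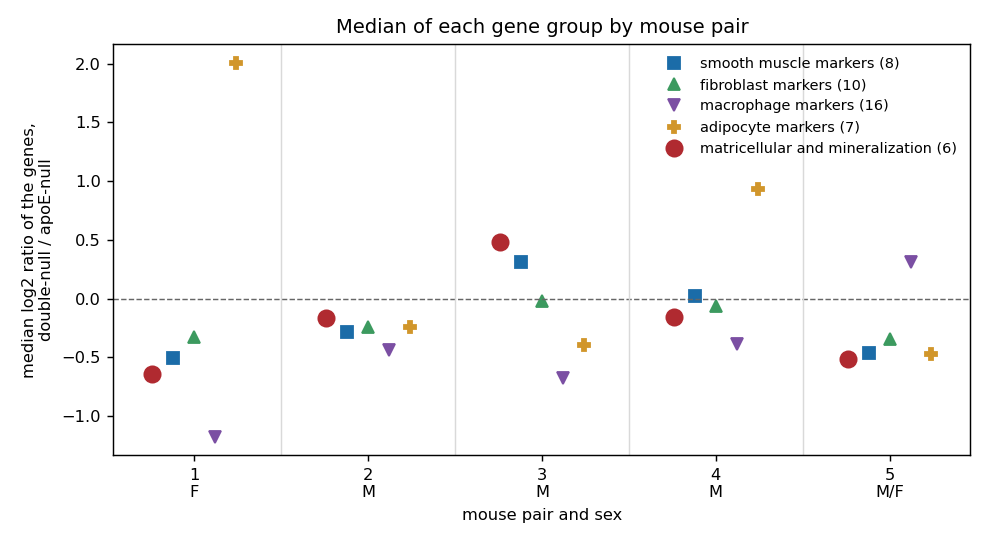
Median log2 ratio of double-null over apoE-null in each mouse pair for the 6 measured genes (red circles) and for markers of 4 cell types, with the number of genes in brackets. Smooth muscle markers, fibroblast markers and the matricellular genes were all highest in pair 3, at 0.31, -0.02 and 0.48. Adipocyte markers were highest in pair 1, at 2.01.

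Of the 6 genes, 2 read differently in the 2 dye orientations. Tnc had a mean of 0.61 with double-null RNA in channel 1 and -0.20 with it in channel 2 (limma adjusted p = 0.0402 for the difference, n = 5 pairs). Ctgf had 0.16 and -0.47 (limma adjusted p = 0.0493). With these, 2 of 6 had a dye difference, against 4.82% of the genes tested. Both calls stood near the threshold. That of Tnc was lost without pair 1, 3 or 4 (limma adjusted p between 0.0856 and 0.172) and when arrays were centred on their medians (0.0502). That of Ctgf was lost without pair 1, 2, 3 or 5 (limma adjusted p between 0.0831 and 0.192) and with centring (0.0636). Mgp, Sparc, Postn and Tgfbi did not pass, with limma adjusted p between 0.369 and 0.784. Each pair value averages both orientations, so that a dye effect of equal size on both arrays cancels in it. The gap between orientations varied by pair: for Tnc the arrays read 0.53 and -0.99 in pair 1 and 0.56 and 0.57 in pair 2. Whether an unequal dye effect remains in the pair values was not tested.

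**Figure D5:**
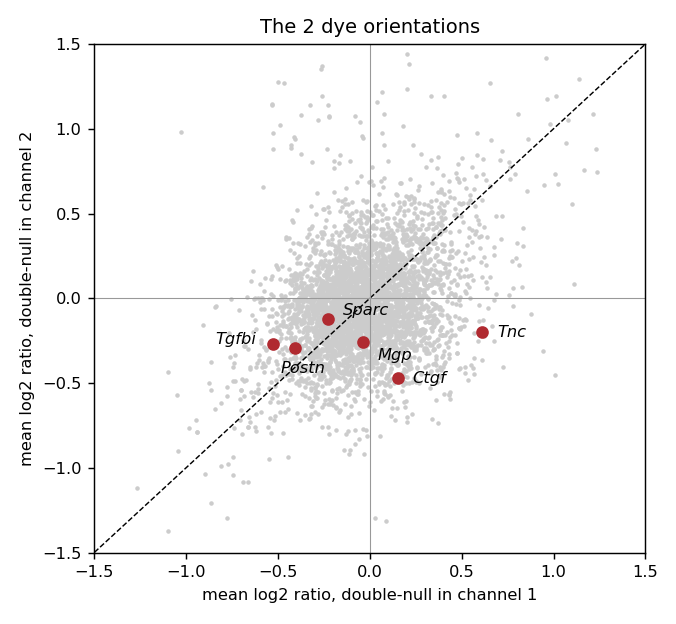
Mean log2 ratio of double-null over apoE-null where the double-null RNA was in channel 1 (horizontal) or in channel 2 (vertical), for all tested genes (grey) and the 6 measured genes (red); the dashed line marks equality, and 66 genes lie outside the axes. Tnc, at 0.61 and -0.20, and Ctgf, at 0.16 and -0.47, lie below the line.

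The value of the female pair was below the mean of the male pairs for all 6 genes, and no difference passed. Ctgf differed most, by -1.68 ± 0.39 (SE, log2 scale; limma unadjusted p = 0.00213, adjusted p = 0.127). The other 5 differed by -0.79 (Postn) to -0.43 (Tgfbi). In pair 5, which was left out here, Ctgf stood at -1.13, near its -1.18 in the female pair. With pair 5 counted among the male pairs the Ctgf difference was -1.27. None of the 6 passed, against 0.21% of 3336 genes tested, and 1 of 6 had an unadjusted p under 0.05, as did 540 of those 3336 genes. Of all these genes 56.6% were lower in the female pair. Since a single pair was female, its spread could be estimated from male pairs only, and sex cannot be told apart from that pair.

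Other matricellular proteins gave no call either, with 0 of 16 tested passing and 12 below 0 (median -0.12). Those with the smallest p were Ccn1, an adhesive CCN protein (log2 -0.41 ± 0.44), Ccn3, a further member of that family (-0.52 ± 0.71), and Ecm1 (-0.30 ± 0.43), each SD with n = 5 pairs and limma adjusted p between 0.512 and 0.581. Like Ctgf, Ccn3 was lowest in pair 1 and highest in pair 3, with pair values of -1.09, -1.03, 0.51, -0.04 and -0.92. Ccn1 was lowest in pair 2, at -1.03, and highest in pair 3, at 0.20.

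Of the mineralization and bone genes 0 of 11 tested passed, and 10 were below 0 (median -0.21). Bmp4, an osteogenic growth factor, had pair values of -0.98, -0.57, -0.17, -0.34 and -0.36 and was below 0 in every pair (log2 -0.49 ± 0.31, SD, n = 5 pairs, limma adjusted p = 0.260). Tnfrsf11b, the decoy receptor osteoprotegerin, had -0.33 ± 0.38, and Sost, the Wnt inhibitor sclerostin, -0.31 ± 0.40 (SD, n = 5 pairs).

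Among receptors for these proteins 0 of 8 passed and 6 were below 0 (median -0.19). Cd47, a thrombospondin receptor, was below 0 in 5 of 5 pairs (log2 -0.30 ± 0.20, SD, n = 5 pairs, limma adjusted p = 0.486). Cd36, a thrombospondin and lipid receptor that adipocytes also express, had pair values of 0.94, -0.10, -0.52, 1.16 and 0.47. The adipocyte medians in the same pairs were 2.01, -0.24, -0.39, 0.93 and -0.47. The mean of Cd36 was 0.39 ± 0.70 (SD, n = 5 pairs), and the part of adipocytes in its values was not tested. Lrp1 had -0.43 ± 0.39 (SD, n = 3 pairs).

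In the transforming growth factor-β list, whose signal induces Ctgf, Postn and Tgfbi, 0 of 13 passed and 10 were below 0 (median -0.24). The inhibitory Smad6 was below 0 in 5 of 5 pairs (log2 -0.42 ± 0.17, SD, n = 5 pairs, limma adjusted p = 0.229), as was the transcriptional regulator Id2 (-0.35 ± 0.24, limma adjusted p = 0.440, n = 5 pairs). Smad7, the feedback inhibitor of the pathway, had -0.42 ± 0.44 (SD, n = 5 pairs) and was lowest in pair 1, at -0.98.

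The genes whose 5 pair values lay closest to those of a member were sought for the 3 members with the widest spread, by the root-mean-square difference over the pairs. Nfkbia and Fstl3 lay 0.18 and 0.20 from Ctgf on the log2 scale; Nfkbia had pair values of -0.94, 0.11, 0.77, 0.67 and -0.86. Cnn1, a smooth muscle calponin, and Pold1 lay 0.37 and 0.38 from Postn, and Pla2g4a and Dctn1 0.11 and 0.14 from Mgp. With 5 points and 3192 candidate genes, closeness of this kind is a description only.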

How the data were processed

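Aortic arch RNA was T7-amplified, labelled and hybridised to two-colour arrays, which were scanned on a GenePix 4000B and quantified in GenePix Pro 3.0 before analysis in GeneSpring, per the labels. The deposited values are log2 ratios with apoE-null as the numerator, per the labels; the sources used here state neither the normalization nor the reason for blanks (49.1% to 67.0% of an array). Deposited array medians lay between -0.01 and 0.09 and were kept. Signal over background is unknown, and with n = 5 pairs the number of mouse pairs limits the precision.

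Signs were turned, and the 2 arrays of a pair, which hold the same extracts, were averaged to 1 replicate. A probe needed both arrays of at least 3 pairs (4866 probes), and probes of a gene were averaged. Each of 4299 genes was tested against 0 in R 4.3.3 with limma 3.58.1 (two-sided, by lmFit followed by eBayes), and p-values were adjusted by Benjamini-Hochberg over all genes. Dye difference (channel 2 minus channel 1 orientation) and the female pair against male pairs 2 to 4 were fitted likewise. The fit was checked on simulated data in which 200 of 4299 genes were changed. It recovered 0% of them at a log2 change of 0.5 and 98% at a change of 1. The changed genes were drawn at random, with normal noise at limma's variances, so these shares describe a typical gene. They need not hold for Ctgf and Postn, whose SDs lay at percentiles 97.6 and 96.0. The means of the 6 measured members lay between -0.40 and 0.21. Symbols were updated by Entrez identifier through RefSeq's GRCm38.p6 annotation (12009 of 12143 probes with 1 symbol matched). Members, lists, motifs and the naming rule (all members, then up to 3 genes of each list with the smallest p, and the 2 nearest patterns of the 3 most variable members) were chosen with earlier results of these data known. Alternatives were leaving out each pair, an array-level fit with the pair as a block, single orientations, centring, scaling, filters, probes unaveraged, other eBayes settings, removal of floor values, and male pairs alone.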

Additional observations from a re-analysis of the deposited data

Results flagged for a closer look

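Of 61 groups of 4 or 5 values examined for a value standing apart by Dixon's criterion, 5 had one, and chance gives about 1 in 20. The groups overlap, since pair values average the arrays that were also examined and list medians reuse named genes. The 5 are therefore not separate findings to set against that rate. The Postn value of pair 3, 1.09, stood apart from the other pairs, as did its channel 1 array in that pair, at 0.82 against -0.89 to -0.46 elsewhere. The channel 2 array of Sparc in pair 3, at 0.78, stood apart from values between -0.51 and -0.17. Among marker genes, Dpt in pair 5, at -0.82, and Comp in pair 1, at -1.31, stood apart from their other pairs.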

How the results depend on the processing

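No member passed under any alternative run: of 102 values for the 6 genes, 96 kept their direction, 6 turned and none passed, the smallest limma adjusted p being 0.0892 for Tnc with channel 1 arrays alone. Those that turned were Ctgf without pair 1 (0.10) and without pair 5 (0.09), with channel 1 arrays alone (0.16, log2 0.155) and in the 3 male pairs (0.51), Sparc in the male pairs (0.03, log2 0.0333) and Tnc with channel 2 arrays alone (-0.20). The dye difference, which did not pass for either gene, turned for Sparc without pair 3 (-0.016) and for Postn without pair 2 (-0.0097). Over the fits that left out 1 pair, the mean of Ctgf ranged from -0.42 to 0.10 and the dye coefficient from -0.016 to 0.12 for Sparc and from -0.0097 to 0.15 for Postn. The count of all genes called by limma, 35, moved to between 0 and 17 when 1 pair was left out, with 0 without pair 3 (494 genes at an unadjusted p under 0.05) and without pair 4 (274). It was 63 in the array-level fit with the mouse pair as replicate block (estimated correlation 0.48), 99 with channel 2 arrays alone, 7 when 1 array of a pair was enough, and 0 with a trended, robust variance (217 at an unadjusted p under 0.05). The block changed no call among the members. The count of dye differences, 207, ranged from 98 (without pair 1) to 206 when 1 pair was left out. The count for the female pair, 7, was 3 when 1 array was enough and 0 with pair 5 among the male pairs (452 at an unadjusted p under 0.05). The causes were not tested. Centring shifted the median of all genes by 0.03. Blank cells set which members could be tested, and signal over background is unknown.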

Other observations

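Sparc, which was outside the rule for naming close patterns and was looked up after its values were seen, lay 0.09 on the log2 scale (root mean square over 5 pairs) from Col1a2, a chain of type I collagen, which had pair values of -0.64, -0.33, 0.44, 0.04 and -0.59, and equally close to Ccdc3.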
